A study of Macaca fascicularis with 24 samples.

Results

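The genes described here encode subunits of potassium channels and of voltage-gated calcium channels, measured in thoracic aortas from old and young cynomolgus macaques. The members are all probe sets whose only annotated gene symbol begins with KCN or CACN. A probe set is a set of short array probes that are read together as 1 value. Where a gene has several, they are numbered here from the brightest (probe set 1) down. The rule found 128 probe sets of 86 genes among the 22215 probe sets that are not array controls. A further 3 probe sets carry a KCN symbol beside another gene symbol and were not used.

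Old males (label OM, mean age 20.0 years), young males (YM, 6.6 years), old females (OF, 21.2 years) and young females (YF, 7.2 years) were compared, with 6 arrays in each group and no genotype or treatment given in the labels. The labels give 1 mean age per group and no age for a single animal, and do not state that replicates are separate animals, so p-values speak only to how much these samples vary, which may be technical. Of all pairs of arrays, 3 (old females 1 and 4, young females 3 and 4, young males 3 and 4) were nearly alike, and each of these was averaged and counted as 1 sample. This left 21 samples: 6 old males and 5 in each other group. Monkey RNA was read on a human array, and precision is limited by how many arrays there are.

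The arrays of 6 of the 21 samples differed from all others: young male 1, young female 3, old males 2 and 4, and old females 2 and 6. Their median correlation with the other arrays was 0.81 to 0.83, against 0.88 to 0.93 elsewhere, and the actin control probe sets, which compare the 3′ end with the 5′ end and rise with degraded RNA, gave log2 ratios of 0.78 to 1.73 against -0.25 to 1.15. They are called divergent samples below, and the results that changed most are also given without them. The labelled tissue was checked against its markers: the 8 smooth muscle markers were all tested, and ACTA2, MYH11 and TAGLN lay in the brightest 1% of probe sets (ACTA2 at percentile 99.7 and MYH11 at 99.5), and the endothelial markers PECAM1, VWF and CDH5 at percentiles 83.6, 86.6 and 83.5. The endothelial list held 6 markers, all tested, of which these are a part. The mean log2 level of the 6 had group medians from 8.50 (young males) to 9.30 (young females). For the smooth muscle markers the group medians were 12.95 (old females) to 13.49 (young males).

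Potassium channels let potassium leave the smooth muscle cell, which holds the membrane potential negative and keeps the artery relaxed. Voltage-gated calcium channels open when the membrane depolarises, and the calcium that enters drives contraction. Both kinds are built from pore-forming subunits and from auxiliary subunits that set the gating or the amount of the channel at the membrane. In arterial muscle the channel best known for opposing contraction is the large-conductance calcium-activated potassium channel (BK), with a pore encoded by KCNMA1 and a smooth muscle auxiliary subunit encoded by KCNMB1.

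Few channel genes were bright in the aorta. Levels are given as quantile-normalised log2(intensity + 16), a scale that understates the change of dim probe sets. A probe set was tested when its mean level reached the median of all probe sets (7.60), and called bright when it reached the 90th percentile (10.43). Of the 128 channel probe sets 28, of 23 genes, were tested (21.9%), and the median channel probe set lay at percentile 28.2. The other 100 lay below the filter, which does not show that their transcripts are absent, because a mismatch between human probes and monkey RNA can lower a probe set on all arrays alike. For the same reason, brightness does not rank the transcripts of different genes.

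**Figure D1:**
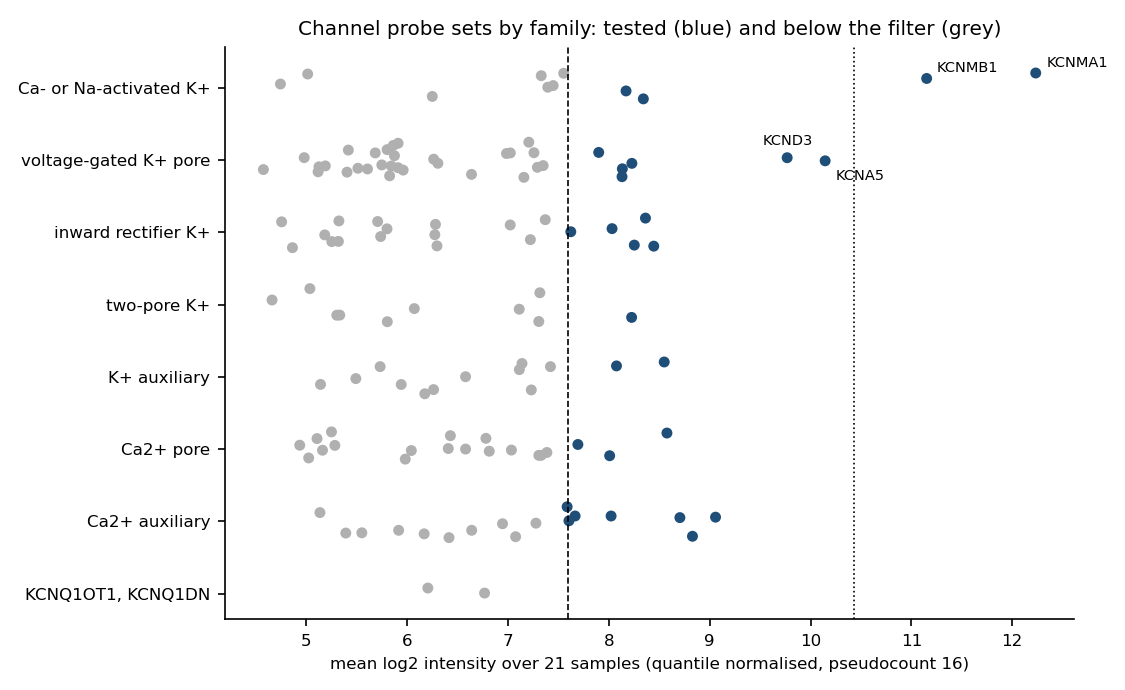
Mean log2 intensity over 21 samples (horizontal axis) of the 128 channel probe sets by family, with tested probe sets in blue and those below the filter in grey; the dashed line is the filter at 7.60 and the dotted line the 90th percentile at 10.43. Only KCNMA1 and KCNMB1 lie beyond the dotted line, and KCNA5 and KCND3 come next.

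Only 2 channel probe sets were bright, and they read the subunits of BK. KCNMA1, on probe set 1, had a mean level of 12.23 (percentile 97.4), and its deposited linear intensity ran from 2060 to 7304 over the 24 arrays with a median of 5151. KCNMB1 had a mean of 11.15 (percentile 94.1) and a deposited intensity of 911 to 3446. The next in brightness were KCNA5 (10.15, percentile 87.6), the pore of a voltage-gated delayed rectifier, and KCND3 (9.77, percentile 83.8), the pore of a transient outward current. No calcium channel probe set reached the 80th percentile; the brightest was CACNB3 (probe set 1, 9.06, percentile 74.6), an intracellular beta subunit.

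By family, 4 of 11 probe sets of calcium- or sodium-activated potassium channels were tested, 6 of 35 of voltage-gated potassium pores, 5 of 20 of inward rectifiers, 1 of 10 of two-pore channels and 2 of 13 of potassium auxiliary subunits. Among calcium channels, 3 of 20 probe sets of pore subunits and 7 of 17 of auxiliary subunits were tested. KCNQ1OT1, a non-coding RNA from the KCNQ1 locus, and KCNQ1DN each had 1 probe set, both below the filter. Of 20 channel genes chosen for their textbook role in arterial muscle, 15 had a probe set with a single symbol and 9 had a tested one.

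Those 9 included the pore of the vascular ATP-sensitive potassium channel, KCNJ8 (probe set 1, 8.25), the inward rectifier KCNJ2 (8.03), the acid-sensitive two-pore channel KCNK3 (8.23), and the pore of the L-type calcium channel, CACNA1C (8.01 and 7.69 on its probe sets). The beta subunit CACNB2 was read by 2 tested probe sets, at 8.02 and 7.59 (the filter used means over all 24 arrays, and levels are means over 21 samples). KCNS3 (7.26), the endothelial intermediate-conductance channel KCNN4 (7.39), CACNA2D1 (6.94), CACNA1D (6.81 and 6.41), the T-type pore CACNA1H (5.28) and KCNN3 (5.01 and 4.74) lay below the filter.

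Probe sets of 1 gene often disagreed in level. For 15 of the 27 genes with several probe sets, the highest and lowest means were more than 1 apart on the log2 scale. KCNMA1 had the widest gap, from 12.23 on the first to 8.17 and 7.55 on the others. KCND3 ran from 9.77 down to 5.42 over 4 probe sets, so its level rests on 1 of them. The 2 tested probe sets of CACNB3 (9.06 and 8.70), of CACNA1C and of KCNH2 (8.23 and 8.13) differed by at most 0.35.

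The first comparison asked which channel genes differ between old and young males. None of the 28 tested channel probe sets passed limma's threshold (smallest adjusted p = 1.0 over all 11108 tested probe sets; 0.018% of all passed). At an unadjusted p below 0.05 limma had 3 of 28: KCNAB1 and KCNH2 with a higher mean and KCNMA1 with a lower mean in old males. Of all tested probe sets 3.36% reached that level, 1.54% higher and 1.82% lower. The mean was lower in old males for 17 of 28 and higher for 11, while 47.6% of all tested probe sets had a higher mean. The median log2 change was -0.085, against -0.02 over all tested probe sets. The count of 17 includes CACNA2D2 and CACNB2 probe set 2, which lay near the filter, a limit given below. No channel probe set had old and young males that did not overlap (background 0.666%).

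**Figure D2:**
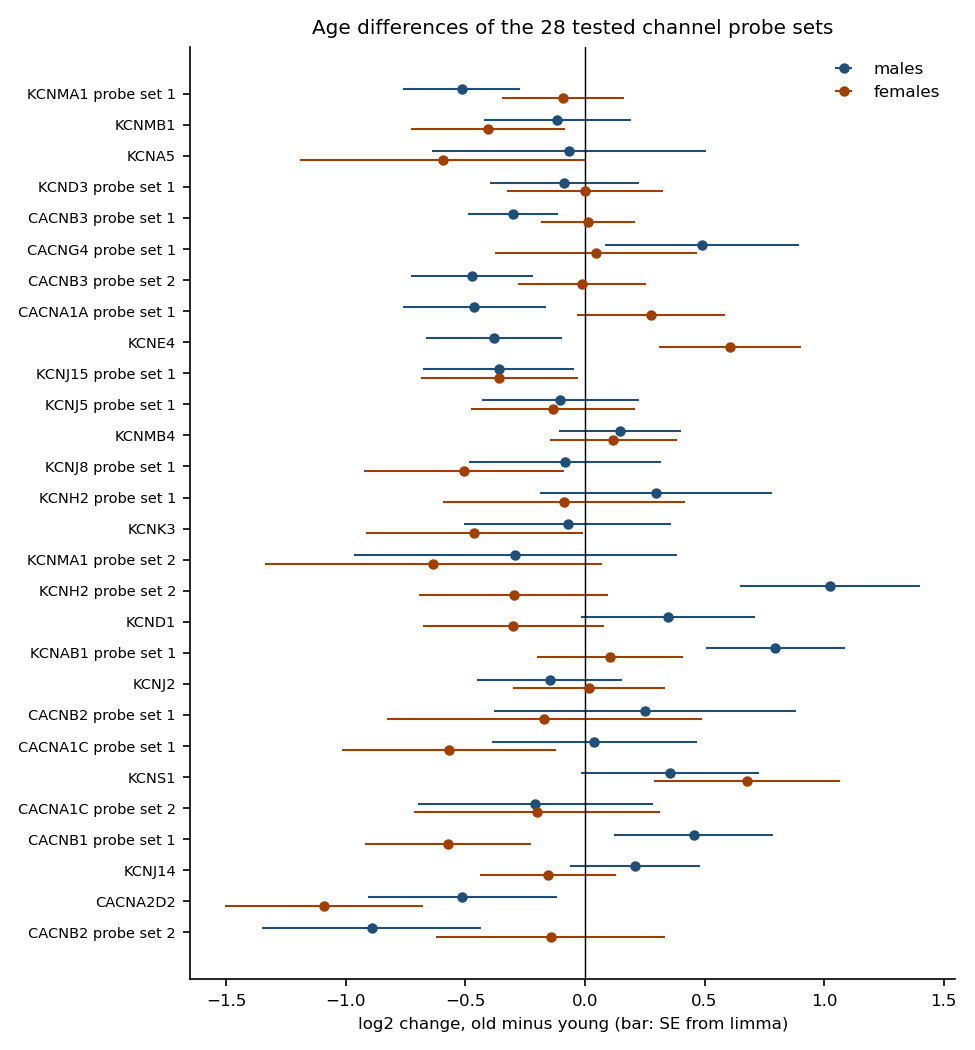
Log2 change, old minus young, with its limma SE (horizontal axis) for the 28 tested channel probe sets in males (blue) and females (brown), ordered by brightness. Changes run from -0.89 to 1.02 in males and from -1.09 to 0.68 in females, and most bars cross or lie near 0.

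The pore of BK had a lower mean in old males, which did not pass the threshold. KCNMA1 (probe set 1) read 12.28, 12.42, 12.67, 12.73 and 12.77 in the 5 young males and 11.58, 12.06, 12.07, 12.14, 12.21 and 12.28 in the 6 old males. The groups overlapped only through old male 2 and young male 2, which both read 12.28. Young males had a mean of 12.57 ± 0.21 (SD, n = 5) and old males one of 12.06 ± 0.25 (SD, n = 6). This is a log2 change of -0.52 ± 0.24 (SE; 95% interval -1.03 to -0.0074) that did not pass (limma adjusted p = 1.0, unadjusted 0.0470). Without the divergent samples it was -0.56 ± 0.16 (limma adjusted p = 0.471), and the 4 old males then lay below all 4 young males. Probe set 2 of KCNMA1 had a change of the same sign, -0.29 ± 0.68, with a wide error.

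In females the same BK pore probe set gave no call. It read 11.24, 12.18, 12.44, 12.56 and 12.68 in young and 11.17, 12.15, 12.32, 12.47 and 12.51 in old females. The lowest sample of each group was a divergent one, and the groups overlapped over most of their range. The log2 change was -0.093 ± 0.26 (limma adjusted p = 0.999; 95% interval -0.62 to 0.44), and the difference of the age effects between the sexes, -0.42 ± 0.35, did not pass (limma adjusted p = 1.0). Without the divergent samples that difference was -0.53 ± 0.23 and did not pass either (limma adjusted p = 0.999, unadjusted 0.0352).

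The beta subunit of BK gave no call, and its low values lay in divergent samples. KCNMB1 read 10.70, 11.27, 11.57, 11.61 and 11.66 in young males and 10.78, 11.14, 11.35, 11.36, 11.41 and 11.44 in old males. In females it read 9.98, 11.15, 11.47, 11.67 and 11.69 in young and 9.97, 10.17, 10.86, 11.40 and 11.54 in old animals. In each of the 4 groups the lowest sample was a divergent one. The log2 changes were -0.12 ± 0.31 in males (95% interval -0.76 to 0.53) and -0.41 ± 0.32 in females (-1.08 to 0.27), neither of which passed (limma adjusted p = 1.0 and 0.999). KCNMB4, another BK auxiliary subunit, known mainly from neurons, had changes of 0.15 ± 0.26 and 0.12 ± 0.27.

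**Figure D3:**
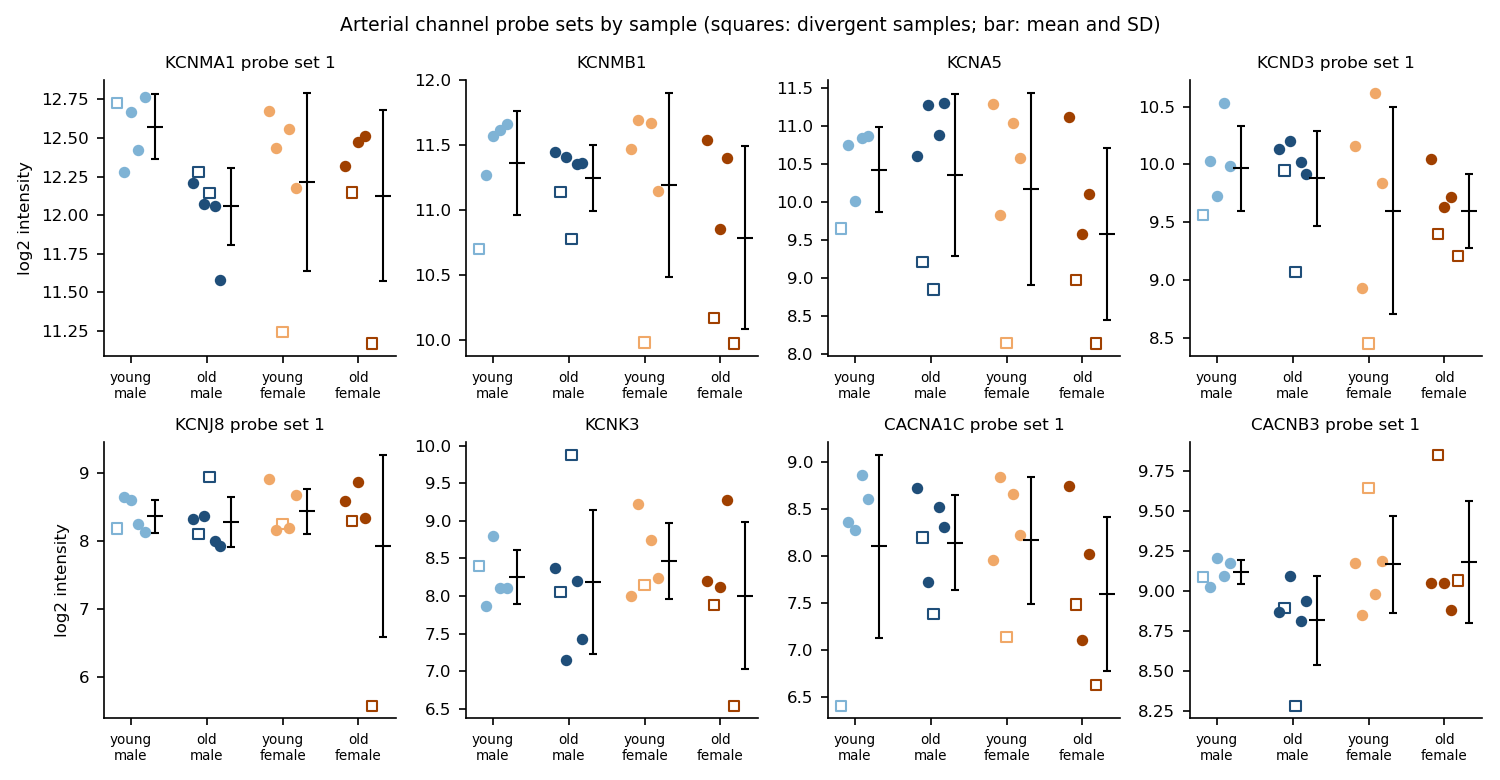
Log2 intensity (vertical axis, its own range in each panel) of 8 arterial channel probe sets in each sample by group; squares are divergent samples and bars the group mean and SD. In KCNMA1 the old males sit at 11.58 to 12.28 and the young males at 12.28 to 12.77, and in KCNA5 and KCNMB1 the squares lie at or near the bottom of each group.

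The voltage-gated potassium pores gave no call. KCNA5 read 9.65, 10.02, 10.75, 10.84 and 10.87 in young males and 8.85, 9.21, 10.61, 10.88, 11.28 and 11.31 in old males. The groups overlapped fully, with a log2 change of -0.068 ± 0.57 in males and -0.59 ± 0.60 in females (limma adjusted p = 1.0 and 0.999). Its 5 lowest samples, at 8.14 to 9.21, were all divergent ones, and the mean was 8.83 in the divergent and 10.67 in the other samples. Without the divergent samples its change was 0.40 ± 0.34 in males, the opposite sign, and -0.42 ± 0.37 in females. The log2 changes of KCND3 were -0.086 ± 0.31 in males and -0.0012 ± 0.33 in females, and those of KCND1, of the same family, 0.35 ± 0.36 and -0.30 ± 0.38. Without the divergent samples KCND1 had 0.0013 ± 0.24 and -0.053 ± 0.26. KCNS1, a silent subunit that forms channels only with other voltage-gated pores, had a higher mean in old animals of both sexes (0.36 ± 0.37 and 0.68 ± 0.39), not past the threshold. Without the divergent samples the KCNS1 changes were smaller, at 0.14 ± 0.33 in males and 0.38 ± 0.36 in females.

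KCNH2, the pore of a rapid delayed rectifier best known from the heart, had its largest male change through 1 sample. On probe set 2 the young males read 5.33, 7.53, 7.73, 7.79 and 8.20 and the old males 8.03, 8.05, 8.11, 8.57, 8.62 and 8.66. The lowest value was young male 1, a divergent sample. The log2 change of 1.02 ± 0.38 (limma adjusted p = 1.0, unadjusted 0.0131) was 0.53 without young male 1 and 0.38 ± 0.25 without all divergent samples. Probe set 1 had a change of 0.30 ± 0.48.

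Among potassium auxiliary subunits, KCNAB1 had the smallest p in males. KCNAB1 encodes an intracellular beta subunit that binds voltage-gated potassium pores and speeds their inactivation. On probe set 1, the tested one, the young males read 7.04, 7.31, 7.34, 7.94 and 8.32 and the old males 7.76, 7.99, 8.13, 8.38, 8.41 and 9.66. Young male 1, a divergent sample, was the highest of its group, and old male 3 stood above all others. The log2 change was 0.80 ± 0.29 (95% interval 0.19 to 1.40; limma adjusted p = 1.0, unadjusted 0.0124), and without the divergent samples 1.14 ± 0.32 (limma adjusted p = 0.488), where the groups no longer overlapped.

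The 3 other KCNAB1 probe sets lay below the filter and were read in a fit with no filter, where no channel probe set of 128 passed. On probe set 2 the young males read 4.41, 4.52, 4.83, 5.44 and 7.63 and the old males 5.34, 6.91, 7.23, 7.92, 7.94 and 8.42. All but 1 sample of each group kept to its side: young male 1 was high and old male 1 low. The log2 changes were 1.93 ± 0.58 on that probe set (limma adjusted p = 1.0, unadjusted 0.00306), 1.28 ± 0.42 on probe set 3 (unadjusted limma p 0.00533, adjusted 1.0) and 0.47 ± 0.43 on probe set 4. All 4 probe sets thus had a higher mean in old males. They read 1 gene in the same samples and are not independent. At these levels, near the lower end of the scale, the pseudocount bears most on the size of the change. In that fit 10 of 128 channel probe sets had an unadjusted limma p below 0.05, against 3.92% of all.

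**Figure D4:**
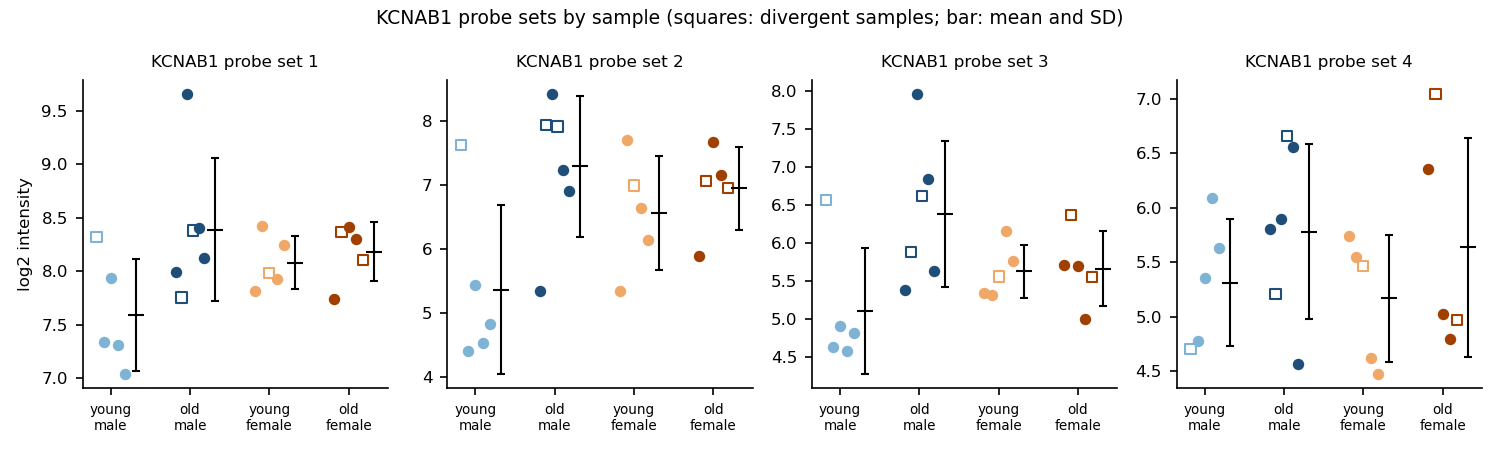
Log2 intensity (vertical axis, its own range in each panel) of the 4 KCNAB1 probe sets in each sample by group; squares are divergent samples and bars the group mean and SD. On probe set 2 the young males other than the divergent one lie at 4.41 to 5.44, below all old males but 1, and the female groups overlap on all 4.

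In females KCNAB1 gave no call. The tested probe set had a log2 change of 0.11 ± 0.31 (limma adjusted p = 0.999), and the others by 0.38 ± 0.61, 0.035 ± 0.43 and 0.47 ± 0.45 in the fit with no filter. The difference of the age effects between the sexes was 0.69 ± 0.42 on the tested probe set and did not pass (limma adjusted p = 1.0). Without the divergent samples it was 1.09 ± 0.48 and did not pass either (limma adjusted p = 0.999, unadjusted 0.0363). KCNE4, a small membrane subunit that modulates voltage-gated pores, had mean differences of opposite sign in the sexes. It read 7.73, 7.88, 8.29, 8.61 and 8.68 in young and 8.47, 8.61, 8.70, 9.03 and 9.40 in old females, and the groups overlapped. The log2 change was 0.61 ± 0.30 in females (limma adjusted p = 0.999) and -0.38 ± 0.28 in males (1.0), and their difference was -0.99 ± 0.41 (limma adjusted p = 1.0, unadjusted 0.0258).

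The inward rectifiers and the two-pore channel gave no call. The log2 changes of KCNJ8 were -0.084 ± 0.40 in males and -0.51 ± 0.42 in females, where old female 6, a divergent sample, read 5.58 against 8.29 to 8.87 in the other old females. Without the divergent samples the female change was 0.11 ± 0.22, so its sign rests on them. KCNJ15, an inward rectifier studied mainly in epithelia, had a lower mean in old animals of both sexes, with changes of -0.36 ± 0.31 and -0.36 ± 0.33. Divergent samples read high for it, at a mean of 9.01 against 8.22, and without them the changes were -0.57 ± 0.22 in males and -0.69 ± 0.24 in females (limma adjusted p = 0.735 and 0.919). KCNK3 had log2 changes of -0.073 ± 0.43 in males and -0.46 ± 0.45 in females, and without the divergent samples -0.43 ± 0.35 and -0.016 ± 0.38. Those of the inward rectifiers KCNJ2 (-0.15 ± 0.30 and 0.018 ± 0.32), KCNJ5 (-0.10 ± 0.33 and -0.13 ± 0.34) and KCNJ14 (0.21 ± 0.27 and -0.15 ± 0.28) were smaller than their errors.

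Among calcium channel pores, CACNA1C showed no difference that stood out from its error. On probe set 1 it read 6.41, 8.28, 8.36, 8.60 and 8.86 in young and 7.38, 7.72, 8.20, 8.31, 8.52 and 8.72 in old males. The old males lay within the range of the young only through young male 1, a divergent sample, which read 6.41. The other young males read 8.28 to 8.86. The changes were 0.039 ± 0.43 in males and -0.57 ± 0.45 in females on this probe set (limma adjusted p = 1.0 and 0.999) and -0.21 ± 0.49 and -0.20 ± 0.51 on probe set 2. Without the divergent samples those on probe set 1 were -0.21 ± 0.32 in males, the opposite sign, and -0.47 ± 0.34 in females. On probe set 2 they were -0.21 ± 0.27 and -0.46 ± 0.29. CACNA1A, the pore of a calcium channel known mainly from nerve terminals, had log2 changes of -0.46 ± 0.30 in males and 0.28 ± 0.31 in females. The male change was -0.31 without young male 1, and the female change was 0.016 without old female 6 and 0.53 without young female 3. Of the nerve and Schwann cell markers, 1 of the 5 on the array passed the filter, TUBB3.

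Among the 28 tested probe sets, the largest female change was in a calcium auxiliary subunit. CACNA2D2, an extracellular subunit that aids the delivery of calcium channel pores to the membrane, read 7.70, 8.03, 8.07, 8.09 and 8.20 in young and 5.78, 6.00, 7.25, 7.71 and 7.89 in old females. All young females lay close together, and 2 of 5 old females overlapped with them. The log2 change was -1.09 ± 0.41 (95% interval -1.95 to -0.23; limma adjusted p = 0.999, unadjusted 0.0153), and -1.09 ± 0.34 without the divergent samples. In males it was -0.51 ± 0.40, with young males at 7.64 to 8.39 and old males at 5.95 to 8.41. With a mean level of 7.60, CACNA2D2 lay just above the filter. It passed through the young groups, with means of 8.02 in females and 8.0 in males, while the old females (6.93) and old males (7.49) lay below the filter. A probe set near the filter that passed in this way had to be lower in the others, so the count that includes it is no support for a difference.

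Beta subunits anchor to the pore from inside the cell. CACNB3 had a lower mean in old males on both probe sets, with changes of -0.30 ± 0.19 and -0.47 ± 0.26 (limma adjusted p = 1.0 for each), and 0.013 ± 0.20 and -0.014 ± 0.27 in females. The tested probe sets of CACNB2 disagreed in males, with -0.89 ± 0.46 on probe set 2 and 0.25 ± 0.63 on probe set 1. Probe set 2 lay near the filter. Young males were its highest group (median deposited intensity 240, against 170 in old males, 189 in old females and 183 in young females). Counts that include it thus have the limit given for CACNA2D2. Without the divergent samples both male changes of CACNB2 were below 0, at -0.76 ± 0.41 on probe set 2 and -0.14 ± 0.27 on probe set 1. Young male 1, a divergent sample, read 5.36 on probe set 1, while its group otherwise ran from 7.97 to 8.87. CACNB1 had log2 changes of 0.46 ± 0.33 in males (0.24 without old male 2) and -0.57 ± 0.35 in females (-0.27 without old female 6). Its mean level of 7.66 also lay near the filter. Old males were its highest group (median deposited intensity 223, against 158 in young males, 170 in old females and 195 in young females). The same limit thus holds for counts that include CACNB1. CACNG4, which is better known as a partner of glutamate receptors, had 0.49 ± 0.41 and 0.046 ± 0.42, and its male change was 0.19 without old male 2.

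In females as a whole, 0 of 28 channel probe sets passed limma's threshold (smallest adjusted p = 0.999; 0% of all tested passed). CACNA2D2 alone, lower in old females, had an unadjusted limma p below 0.05. That is 1 of 28, a share near the 2.84% of all tested probe sets at that level (1.04% higher and 1.81% lower). CACNA2D2 lay near the filter, so the limit given above holds for this count. In 20 of 28 the mean was lower in old females and in 8 it was higher, while 45.5% of all tested probe sets had a higher mean. The median was -0.15, against -0.03 over all tested probe sets. The count of 20 also includes CACNA2D2. No channel probe set had female groups that did not overlap (background 0.342%).

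Averaged over the sexes, 0 of 28 passed in limma (background 0%), and 2 had an unadjusted p below 0.05 (background 4.37%, with 1.61% higher and 2.75% lower): CACNA2D2 at -0.80 ± 0.29 and KCNAB1 at 0.45 ± 0.21, both at a limma adjusted p of 0.985. The comparisons in males and in females are part of this average, so it is no separate evidence. The averaged count includes CACNA2D2, which lay near the filter, with the limit given above. For the difference of the age effects between the sexes, 0 of 28 passed in limma (background 0%). An unadjusted p below 0.05 was found for 3 (background 1.94%, with 1.14% higher and 0.792% lower): KCNH2 (1.32 ± 0.55), KCNE4 and CACNB1 (1.03 ± 0.48). CACNB1 lay near the filter, with the limit given above. The KCNH2 difference was 0.83 without young male 1 and 0.43 ± 0.37 without all divergent samples (unadjusted limma p 0.262). The median difference was 0.32, against 0.02 over all tested probe sets, and 0.054 without old female 6. For the 8 smooth muscle markers described below it was 0.30.

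Without the 6 divergent samples, 4 old and 4 young males and 3 old and 4 young females remained, and 0 of 28 channel probe sets passed in limma in any of the 4 comparisons. In males, 4 had an unadjusted p below 0.05 (KCNAB1, KCNJ15, CACNA1A and KCNMA1) against a background of 5.86%. The male groups did not overlap for 5 of 28, against a background of 5.34%: KCNAB1 and CACNB1 were higher in all 4 old males (background 2.89%), and KCNMA1, KCNJ15 and CACNA1A lower (2.45%). In females, 3 had an unadjusted p below 0.05 (CACNA2D2, KCNJ15 and KCNE4; background 5.19%), and the groups did not overlap for 1, CACNB3 on probe set 2, lower in old females (background 3.53%, with 1.56% higher and 1.97% lower). Its female change was then -0.31 ± 0.23, while CACNB3 probe set 1, the brighter one, had -0.053 ± 0.14. Averaged over the sexes 4 channel probe sets had an unadjusted p below 0.05 (CACNA2D2, KCNAB1, KCNJ15 and KCNMA1; background 6.83%). In the difference between the sexes there were 5 (KCNAB1, CACNB1, CACNA1A, KCNMA1 and KCNE4; background 3.59%). Counts in this paragraph that include CACNA2D2 or CACNB1, which lay near the filter, have the limit given above and are no support for a difference.

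Some channel probe sets were dim in the divergent samples. The mean was lower by more than 1 on the log2 scale in these samples for 5 of the 28 tested probe sets and higher by more than 1 for 0, while 11.3% of all tested probe sets differed by more than 1 in either direction. That share covers both directions, so it is not a like background for a count of lower probe sets alone. Of the 28, 12 were higher and 16 lower, with a median difference of -0.22 against -0.074 over all tested probe sets. The 5 were KCNMA1 on probe set 2 (-2.10), KCNA5 (-1.84), CACNB2 on probe set 1 (-1.41) and both probe sets of CACNA1C (-1.35 and -1.12). The bright KCNMA1 probe set differed by -0.40. The divergent samples are 2 of 5 old females, 2 of 6 old males, 1 of 5 young females and 1 of 5 young males, and their part in the age comparisons is given by the values without them. This split was drawn from the correlation of whole arrays, so these differences are a description with no test.

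**Figure D5:**
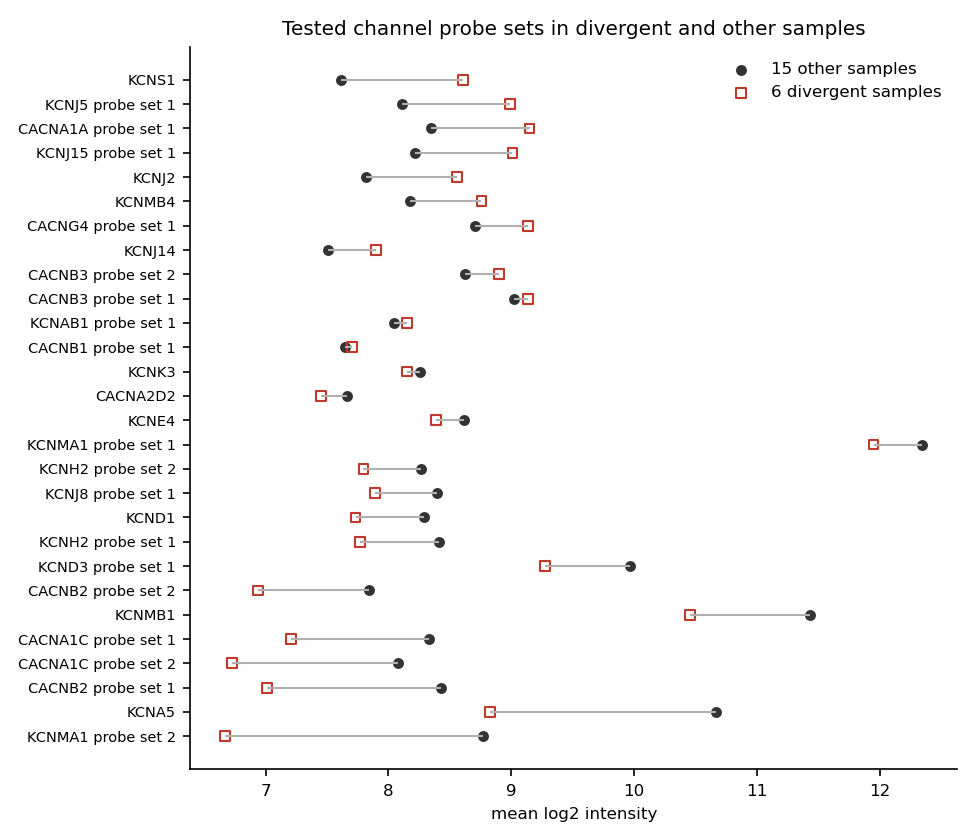
Mean log2 intensity (horizontal axis) of the 28 tested channel probe sets in the 6 divergent samples (open squares) and the 15 other samples (dots), ordered by their difference. The second KCNMA1 probe set, KCNA5, CACNB2 and CACNA1C lie 1.12 to 2.10 lower in the divergent samples.

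Smooth muscle content was set beside the channel levels. In bulk tissue, fewer cells of a type and less RNA per cell cannot be told apart. The mean log2 level of the 8 smooth muscle markers ran from 13.31 to 14.16 in old and 13.19 to 13.70 in young males, and from 11.68 to 13.98 in old and 12.29 to 13.75 in young females. Of these 8 genes, 0 passed in limma in any comparison, and 7 of 8 had a lower mean in old females, with a median change of -0.36. In males 6 of 8 had a lower mean (median change -0.10), while DES, the muscle intermediate filament, had a higher one (1.62 ± 0.62). The difference of the age effects between the sexes was above 0 for 8 of 8, with a median of 0.30. The part of this in the channel values was not tested.

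Across the 15 other samples, KCNMB1 and the smooth muscle mean had r = 0.42 (permutation p = 0.126; Spearman's rho 0.33, p = 0.231), and KCNMA1 and the smooth muscle mean r = -0.028 (permutation p = 0.924; rho 0.029, p = 0.925). The BK subunits had r = 0.31 with each other (permutation p = 0.262; rho 0.53, p = 0.0458). In the 6 divergent samples the same relations had r = 0.79 (exact permutation p = 0.0250; rho 0.94, p = 0.0167), 0.88 (0.0778; rho 0.60, p = 0.242) and 0.76 (0.0972; rho 0.71, p = 0.136). No relation of these 6 held after Benjamini-Hochberg adjustment, with 2-sided permutation p-values adjusted to 0.150 to 0.924 for r and 0.10 to 0.925 for rho. Without the 2 samples farthest from the median of the measure on the x axis, the relations had r = 0.55, 0.15 and 0.35 in the other samples and 0.61, -0.39 and 0.19 in the divergent samples, so those of KCNMA1 in the divergent samples rest on the samples left out.

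As a description over the 15 other samples, 17 of the 28 tested channel probe sets correlated positively with the smooth muscle mean, with a median r of 0.11 against 0.04 over all tested probe sets. For 6 of 28 r was above 0.5, against 8.33% of all: KCNH2 on probe set 1 (0.69), CACNA1C on both probe sets (0.61 and 0.51), KCNA5 (0.54), KCND3 (0.54) and KCNMA1 on probe set 2 (0.54). These points share array quality and tissue sampling.

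Markers of other cell types gave no call in any comparison. The mean of the 4 tested adipocyte markers ran from 7.97 to 12.52 in old and from 7.43 to 10.67 in young males (median change 1.72), and 3 of 4 tested fibroblast markers had a lower mean in old males (median change -0.52). In females the 2 tested blood markers, HBB and PPBP, had a median change of 1.90. The 6 tested endothelial markers all had male changes above 0 (median change 0.27), with TEK at 1.24 ± 0.44, and 3 of 6 had female changes above 0 (median change -0.075), with VWF at -1.48 ± 0.68. The difference between the sexes was above 0 for 6 of 6 endothelial markers and 4 of 4 adipocyte markers (median 1.74). It was above 0 for 2 of 4 fibroblast, 2 of 4 macrophage, 1 of 2 striated muscle and 0 of 2 blood markers. The 4 tested macrophage markers had median changes of 0.081 in males and -0.11 in females, and the 2 tested striated muscle markers -0.51 and -0.17. None of these markers passed in limma, and their part in the channel values was not tested.

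Other genes that set membrane potential and calcium entry, 41 in a list of partners, gave no call either. Of these, 32 were on the array with a single symbol and 18 were tested, and 0 passed in limma in any comparison. In males 8 of 18 had a higher and 10 a lower mean (median change -0.077, against -0.02 over all tested probe sets), and 0 had an unadjusted limma p below 0.05. In females 7 were higher and 11 lower (median -0.12, against -0.03), with 1 at that level, ATP2B1 (0.55 ± 0.26), a plasma membrane calcium pump. Averaged over the sexes there were 2, the cation channel TRPM4 (-0.39 ± 0.17) and the calcium pump ATP2B4 (-0.25 ± 0.11), both lower. ABCC9, the regulatory partner of KCNJ8, had log2 changes of -0.42 ± 0.53 in males and -0.56 ± 0.56 in females, and RYR2, which releases stored calcium, of -0.67 ± 0.52 and -0.21 ± 0.55.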

How the data were processed

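The authors deposited a linear intensity for each of 22277 probe sets on each of 24 arrays. Their probe summary and scaling method: not given in the sources used here. Per the labels' protocols, RNA was extracted with phenol and chloroform and labelled with biotin. Intensities were converted to log2(intensity + 16) and quantile normalised, and 62 control probe sets were then left out. Probe sets with a mean over all arrays at or above the median of 22215 means were tested, 11108 in all. Of the 22215, 19064 had 1 gene symbol in the platform annotation, 1043 several and 2108 none here. Of the 86 channel symbols, 84 are in macaque RefSeq.

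All 276 pairs of arrays were compared. The SD of the log2 difference was at most 0.38 in the 3 averaged pairs and at least 0.43 in the others. A mean per group was fitted to 21 samples with limma 3.58.1 in R 4.3.3 (empirical Bayes, intensity trend), with Benjamini-Hochberg adjustment over all tested probe sets and a threshold of 0.05. Errors on log2 changes are limma standard errors. Arrays with a median correlation with the others below 0.85 were called divergent, a limit taken from earlier results.

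Channel genes, lists and tests were chosen with earlier results of these data known. Named are all bright members, up to 4 higher and 4 lower members with the smallest p in each age comparison, 4 in the difference between sexes, and 20 genes with a role in arteries. Other tested members and dim probe sets of KCNAB1 were added after their values were seen. Lists use the brightest tested probe set of each gene. The model was tested on simulated data. Permutation tests used scipy 1.17.1 with 100000 resamples or, for 6 samples, all 720 orders.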

Additional observations from a re-analysis of the deposited data

Results flagged for a closer look

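In groups of 5 or 6 samples, 13 of 92 group values over 23 tested channel probe sets held a sample far from the rest of its group. Chance flags about 1 in 20 groups (5%). Of the 13 samples so marked, 11 were divergent ones. Young male 1 was low for KCNH2 on probe set 2 (5.33, others 7.53 to 8.20), for CACNA1C (6.41 on probe set 1, others 8.28 to 8.86; 5.99 on probe set 2, others 7.87 to 8.48) and for CACNB2 on probe set 1 (5.36, others 7.97 to 8.87). Old female 6 was low for KCNMA1 on probe set 1 (11.17, others 12.15 to 12.51), KCNJ8 (5.58, others 8.29 to 8.87) and CACNB2 on probe set 1 (5.33, others 8.23 to 9.0). Young female 3 was low for CACNA1C on probe set 2 (6.20, others 8.14 to 8.49). CACNB3 on probe set 1 was low in old male 4 (8.29, others 8.81 to 9.10) and high in old female 2 (9.85, others 8.88 to 9.07). CACNB1 was high in old male 2 (9.16, others 7.68 to 8.21). Outside the divergent samples, KCNAB1 was high in old male 3 (9.66, others 7.76 to 8.41), and KCNMA1 on probe set 1 was low in old male 6 (11.58, others 12.06 to 12.28).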

How the results depend on the processing

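Over 31 alternatives, 21 of them leaving out 1 sample, 0 channel probe sets passed in any comparison. The median difference of the age effects between the sexes over channel probe sets was 0.32, and came down to 0.14 with the actin ratio as a covariate, 0.051 with all 24 arrays, 0.069 with array weights, 0.032 with no filter and 0.072 without the divergent samples. Leaving out 1 sample gave 0.054 (without old female 6) to 0.41. Probe sets called among all tested in males were 2, but 0 with median-centred arrays, without the trend, with a pseudocount of 64 and with no filter, 1 with the actin covariate and 20 with array weights (0 to 2 leaving out 1 sample). Without the divergent samples 3 were called in males and 1 averaged over the sexes. With no filter the medians over all 128 channel probe sets were 0.0046 in males, 0.0058 in females and 0.047 averaged. At an unadjusted limma p below 0.05, leaving out 1 sample gave 2 to 4 channel probe sets in males, 0 (without old female 2) to 4 (without young female 3) in females, and 0 (without young female 2) to 4 in the difference. In females KCNMB4 changed sign with the actin covariate (-0.080). For named probe sets the smallest adjusted p under any alternative was 0.0691 (KCNAB1 in males, limma). Male changes of KCNAB1 ran from 0.54 without old male 3 to 0.98 leaving out 1 sample, and those of KCNMA1 from -0.59 to -0.42.

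The replicate number as a block over 24 arrays gave 1 call averaged over the sexes and a median difference between the sexes of 0.051, the value of the 24 arrays without it. The labels do not state that the numbers pair animals. Of 6 same-numbered pairs of old and young arrays, 2 in males and 3 in females had a correlation of deviations above 0.1, and 1 and 2 old arrays correlated best with their own number. The correlations ran from -0.41 to 0.24 in males and from -0.45 to 0.53 in females. So few pairs cannot show whether the numbers stand for pairs or batches. The block changed no other call. No measure of background was used here, so how signal over background limits the 100 dim channel probe sets was not tested.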

Other observations

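KCNA3, a voltage-gated potassium channel known from lymphocytes, lay below the filter (mean 6.98), yet read 11.66 in old female 6, a divergent sample, against 4.43 to 8.19 in all other samples. Among the 100 channel probe sets below the filter, 7 had an unadjusted limma p below 0.05 in males in the fit with no filter, against 3.92% of all probe sets, and 0 passed. Besides KCNAB1, they included CACNA1G, the pore of a T-type calcium channel, with a lower mean in old males on probe set 4 (log2 change -1.11 ± 0.36) and probe set 3 (-1.05 ± 0.41). The other 3 CACNA1G probe sets did not share this, with male changes of -0.36 ± 0.44, 0.11 ± 0.38 and 0.29 ± 0.17 on probe sets 1, 2 and 5. Averaged over the sexes, probe set 4 had a change of -0.88 ± 0.26 (limma adjusted p = 0.936). In females 5 of the 100 had an unadjusted limma p below 0.05, near the 4% of all probe sets, among them KCNC1 (1.22 ± 0.42) and KCNQ1OT1 (-1.04 ± 0.45). These probe sets were named after their values were seen. Deposited intensities of KCNC1 (median 41) and KCNQ1OT1 (median 71) were low too.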
